A study of Rattus norvegicus with 67 samples.

Results

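Broad domains of high histone retention were defined in rat sperm as unbroken runs of at least 3 adjacent windows of 1000 bp on chromosomes 1 to 20 that each held 2 to below 5 times as many reads as the median window. The level of a window was its mean in RPM (a reads-per-million unit, the reads of a window scaled to the total count of that animal) over the 9 control lineage animals without disease, divided by the median of this mean over windows with reads, which was 0.380 RPM. The rule found 40904 windows in 8371 domains, out of 2782040 windows in all and 2506206 windows with reads on chromosomes 1 to 20. The domains covered 40.9 Mb, or 1.63% of the windows with reads. They held 70.3% of all 58151 windows of that level, and the remaining ones lay in 9369 single windows and 3939 pairs.

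Sperm was taken at 1 year of age from F3 generation outbred Sprague Dawley males, the great-grand-offspring of gestating F0 females that were given 25 mg/kg atrazine, a herbicide, or the vehicle dimethyl sulfoxide (DMSO) on embryonic days 8 to 14. Histone-bound DNA was pulled down with a histone H3 antibody (chromatin immunoprecipitation, ChIP) and sequenced, and the methods name either a pan antibody or one for the form trimethylated at lysine 27, so that the form of H3 counted is uncertain. Counts were given for 66 animals. These were 9 control lineage animals without disease (used by the rule), 7 control lineage animals with a disease, 19 atrazine lineage animals without disease, and atrazine lineage animals with a lean phenotype (5), kidney disease (3), testis disease (4), late puberty (5) or multiple disease (14). Each library is labelled as 1 animal, while the methods speak of pools. Total counts were between 19909382 and 239635003 per animal. A treatment tag in the sample list reads atrazine for every control lineage animal and DMSO for 13 atrazine lineage animals, against the lineage in the titles, which was followed here. Multiple disease animal M48 and lean animal M28 stood apart from the other animals over the domains, and their median windows outside the domains were also the lowest. For the comparisons that hold these animals the main share of reads and the main edgeR count of calls are given with and without them. Counts by DESeq2, by summed domains and with other reference animals include them.

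During the last steps of sperm formation most histones are replaced by protamines, small basic proteins that pack the DNA tightly. A small part of the genome keeps its nucleosomes, and such sites are known from promoters of developmental genes and from other parts of the genome. A ChIP-Seq read count per window gives how many sequenced DNA fragments of the pull-down mapped there. Counts were not set against DNA that had not been precipitated, so the part of a level that is due to bound histone was not measured.

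The domains were short, and their lengths were not evenly spread. The number of runs fell from 9369 single windows to 1640 runs of 4 windows, rose again to 1733 runs of 5 windows and 1904 runs of 6 windows, and dropped to 478 runs of 7 windows and 107 of 8. Domains of 5 or 6 windows made up 43.4% of all domains and held 20089 windows. Only 376 domains (4.49%) had 8 or more windows and 18 had 20 or more. The median length was 5 windows and the mean was 4.89. The length of a run depends on the limits of the rule, and these counts are a description of its result.

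**Figure D1:**
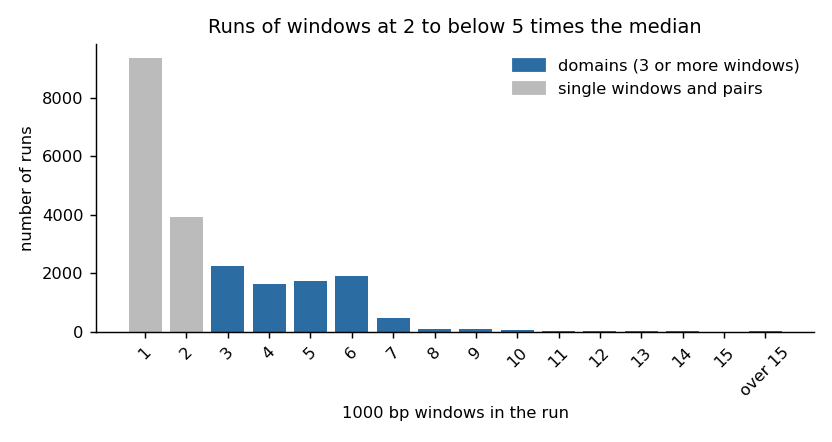
Number of runs (vertical axis) by the number of adjacent 1000 bp windows in the run (horizontal axis), with domains in blue and single windows and pairs in grey. The number of runs has a second maximum of 1904 at 6 windows and falls to 478 at 7 windows.

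The edges of the domains were steep. In the 57 animals that the rule did not use, the first window outside a domain had a median level of 1.41 times the median window, the next one 1.04 and the third 1.02. From there to 20 windows away the median stayed between 1.01 and 1.02. Inside domains of 6 or more windows the outermost window had a median level of 2.65, the next 2.77 and the third 2.79. Outside domains of 6 windows alone the next window had 1.24 on one side and 1.21 on the other. Inside them the level ran from 2.65 in the first window to 2.77 in the fourth and 2.65 in the last. The rule itself sets the step at the edge and keeps the level inside between its limits. Of the 16742 windows next to a domain edge, 9537 had a level above 0 and below 1.5 in the animals of the rule, 38.2% lay at 1.5 to below 2, 4.24% were at 5 or more and 0.633% had no reads. A window at 5 or more times the median touched 558 domains (6.67%), so these runs were ended by the upper limit of the rule.

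**Figure D2:**
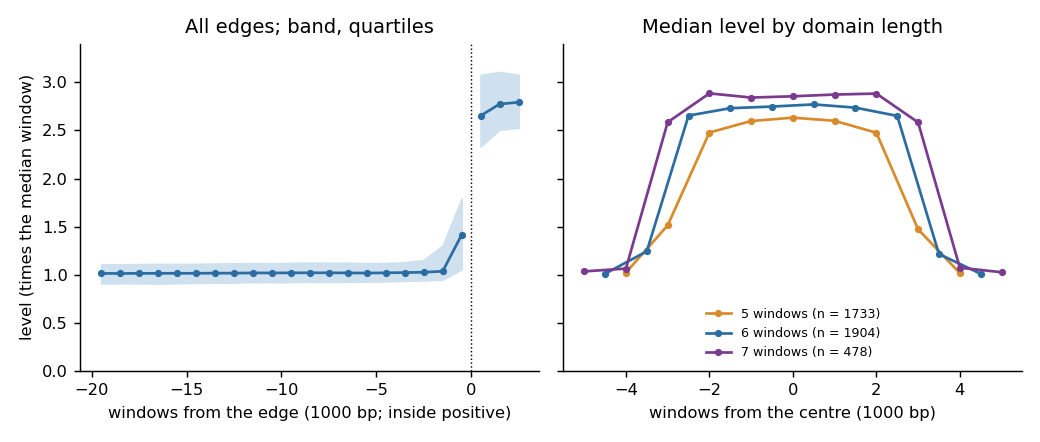
Median level, in multiples of the median window, in the 57 animals that the rule did not use, by distance in 1000 bp windows from a domain edge (left, with the band showing quartiles) and from the centre of domains of 5, 6 and 7 windows (right). On the left the values outside are from all domains (1.41 next to the edge, 1.04 at the second window) and those inside from domains of 6 or more windows (2.65 at the edge).

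The level of the domains was much the same in animals that had no part in choosing them. Over the 9 animals of the rule, domain windows had a median level of 2.72 (5th to 95th percentile 2.08 to 3.84). Over the other 57 animals the median was 2.63 (1.98 to 3.90). In the mean of these 57 animals, 93.6% of the domain windows lay again between 2 and 5, against 83.1% of the windows in pairs and 77.0% of the single windows. Single windows had a lower level to begin with. Among windows at 2 to 2.5 in the animals of the rule, the share was 82.7% for domain windows and 68.1% for single windows. By domain, the log2 level correlated with r = 0.923 between both sets of animals over 8371 domains, which are not independent replicates and share libraries. The level was higher in the 57 animals in 22.9% of the domains, and the median difference was -0.05 on the log2 scale. The levels in the 9 animals of the rule chose the domains, so nothing is read from this direction.

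Single animals differed more widely. A domain window reached the lower limit (0.761 RPM) in 16.4% to 92.4% of cases per animal, with a median of 86.1% over the 57 animals. For single windows the range was 15.7% to 77.3% and the median 71.3%. The difference between both shares within an animal was 13.6 ± 3.16 percentage points (SD, n = 57), and it was positive in 57 of 57 animals. Domain windows had the higher level in the animals of the rule to begin with, so this is a description without a test. For windows at 2 to 2.5 it was 6.94 ± 2.41 points (SD, n = 57) and positive in 55 animals. M48 with 16.4% of domain windows at the limit was the lowest animal, M28 came next, and then M22 with 61.5%.

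Of the 12 windows closest to the limits of the rule, some lay on the other side of the limit in the 57 animals and others did not. Just inside the lower limit lay windows of chromosome 5 (start 77905001), 15 (32092001) and 2 (36309001), all at a level of 2.00, with 1.93, 2.01 and 2.07 in the 57 animals. Just outside it, next to a domain, lay windows of chromosome 2 (starts 6082001 and 266408001) and 9 (22670001), also at 2.00, with 1.61, 1.89 and 1.94. Just inside the upper limit were windows of chromosome 11 (39115001) and 9 (122026001 and 4786001) at 5.00, 5.00 and 4.99, which had 5.13, 4.60 and 5.46. Just outside it were windows of chromosome 9 (4185001), 2 (593001) and 1 (39247001) at 5.00, 5.00 and 5.01, which had 4.83, 4.96 and 5.24.

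The domains were found on every one of the 20 chromosomes, but not in equal density. They took 16.3 of 1000 windows with reads overall. Chromosome 2 had the highest density with 23.5 per 1000, followed by chromosomes 1 (19.9), 9 (19.8) and 15 (19.6). Chromosomes 10 (6.62) and 12 (7.98) had the lowest. The share of domains with 5 or 6 windows was between 31.7% on chromosome 12 and 52.8% on chromosome 11. Neighbouring domains lay a median of 113 kb apart, 14.5% of the gaps were at most 10 kb, and 313 gaps (3.75%) were of 1 window only. Of 2629 stretches of 1 Mb, 600 held no domain window and the median stretch held 10. The densest one was chromosome 9 from 4 to 5 Mb, where 45 domains took 351 windows or 40.8% of the windows with reads. It was followed by chromosome 2 from 0 to 1 Mb with 309 windows, chromosome 7 from 21 to 22 Mb with 295 and chromosome 2 from 156 to 157 Mb with 263. The outermost 2 Mb of the chromosomes held 5.39% of the domain windows and 2.94% of the windows with reads. All these are descriptions without a test, since windows of a neighbourhood are not independent.

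The longest domain had 75 windows and lay on chromosome 17 (Rnor 6.0, chr17:47816001-47891000). Its mean reads per window were 1.35 to 1.46 RPM in the 9 animals of the rule and 0.494 to 1.47 RPM in the other 57, with a median of 1.38. M48 was the lowest animal there and M39 the next with 0.787. The second longest lay in the dense stretch of chromosome 9 (chr9:4335001-4387000, 52 windows) and had 0.654 RPM in M48, a median of 1.18 and a highest value of 1.29. A domain of 44 windows on chromosome 1 (chr1:173290001-173334000) was the most even of the 5 longest. It lay between 1.00 and 1.27 RPM in the 57 animals, with a coefficient of variation (CV, the SD divided by the mean) of 0.0478, and M48 was its highest animal. The domain chr2:146977001-147007000 (30 windows) had 0.382 RPM in M48 and a median of 1.18. The fifth place was shared by domains of 29 windows on chromosomes 5 and 19. In chr5:52521001-52550000 M48 was again the lowest, with 0.253 RPM against a median of 0.817. In chr19:43887001-43916000 it was the other way round, with 2.70 RPM in M48 against a median of 1.02. In 4 of these 6 domains M48 was thus the lowest of the 57 animals and in 2 the highest.

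Genes are given here as the study's own lists of regions name them. These are lists of regions that differed in histone retention, drawn from the libraries analysed here, and of regions that differed in DNA methylation, which was measured in other libraries. They named a gene at 44 of the domains, and at 23 of these a gene with a symbol other than that of a sequenced clone. The gene came from the histone lists at 30 domains, from the methylation lists at 13 and from both at 1. The domain with listed genes of the highest level was chr20:5372001-5379000 (7 windows), listed with RT1-A1 and RT1-A2, which are class I genes of the rat major histocompatibility complex and present peptides to T cells. Its level was 4.09 in the animals of the rule and 5.13 in the others. By animal it was 1.26 RPM at the lowest (M7), 1.88 at the median and 6.32 at the highest (M48), with 3.66 in M28, 3.26 in M22 and at most 2.65 in the remaining animals. The 8 domains listed with RT1 genes all had a higher level in the 57 animals (3.33 to 5.13) than in the animals of the rule (2.79 to 4.09). The latter levels chose the domains. All 8 lie between 4662001 and 5419000 of chromosome 20 and are not independent of each other. The level in the 57 animals is a mean on which single animals weigh: at chr20:4933001-4936000 the highest animal had 8.62 RPM against a median of 1.18. One of these 8, a domain of 5 windows (chr20:5414001-5419000), was listed with RT1-A1 and with Vps52, a subunit of a complex that tethers vesicles at the Golgi.

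The other listed genes with values given here lay at domains of 3 to 10 windows. The 8 windows of Mycbp2, a ubiquitin ligase of neurons named from a methylation list (chr15:92078001-92086000), had 1.31 to 2.03 RPM with a median of 1.51 and a CV of 0.0808. A domain of 6 windows at Dthd1 (chr14:48616001-48622000) had 0.812 to 1.34 RPM and a CV of 0.0799. The 7 windows of Tek, the angiopoietin receptor of blood vessels (chr5:113813001-113820000), had 0.869 to 1.62 RPM and a level of 2.88 in both sets of animals. RGD1562392 and Sult1c2a, a sulfotransferase, were in a methylation list at 10 windows of chromosome 9 (chr9:4165001-4175000) with 0.932 to 1.54 RPM. Amph, which acts in the uptake of synaptic vesicles and was also in a methylation list (chr17:48343001-48349000), was lower in the 57 animals (level 1.98) than in the animals of the rule (2.24). The 5 domains of chromosome 3 between 16752001 and 17093000 that were listed with clone-based names were also lower in the 57 animals, at 1.71 to 1.92 against 2.16 to 2.36. These levels in the animals of the rule are what chose the domains.

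The 5 domains with the highest level in the 57 animals lay on chromosomes 20, 16 and 6. For chr20:5351001-5354000, chr20:154001-157000, chr20:5372001-5379000 and chr6:10806001-10809000 the highest animal was M48, with 10.3, 5.46, 6.32 and 17.9 RPM against medians of 2.04, 1.78, 1.88 and 1.50. The fifth one, chr16:64944001-64949000, had its highest values in other animals and is described with its neighbours. The 5 domains with the largest CV over the 57 animals were chr6:10806001-10809000 (CV 1.16), chr15:75416001-75420000 (1.02), chr7:1624001-1627000 (1.02), chr7:711001-715000 (0.921) and chr7:99520001-99524000 (0.917). In all of them M48 was the highest animal, with 10.1 to 17.9 RPM, and M28 was the next with 3.20 to 5.79. M22 followed with 2.66 to 3.83. Without M28 and M48 the CV of these 5 domains was between 0.211 and 0.311.

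M48 and M28 differed from the other animals by the length of the domain. Each domain was compared with the median animal of the 57 on the log2 scale. In M48 the median difference was -1.60 for domains of 3 windows, -1.53 for 4 and -1.34 for 5. It was -0.05 for domains of 6 windows and 0.59 for domains of 7 windows, and again -1.01 for 8 to 14 windows and -1.31 for more than 14. M28 showed the same order with smaller values: -0.63, -0.62 and -0.62 for 3, 4 and 5 windows, then -0.35 for 6, -0.05 for 7 and -0.37 for 8 to 14. Lean animal M42 lay at -0.24, -0.28 and -0.27 for 3 to 5 windows and at -0.17 and -0.09 for 6 and 7. M22, an atrazine lineage animal without disease, lay at -0.29, -0.31 and -0.29, and then at -0.14 and 0.01. In the other 53 animals these medians stayed between -0.16 and 0.08 for every length up to 14 windows.

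**Figure D3:**
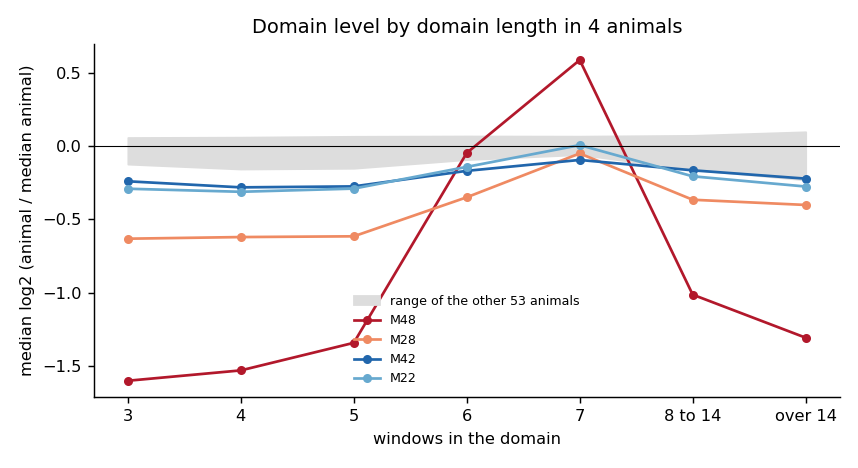
Median log2 difference of an animal from the median animal of the 57 (vertical axis) over domains of each length in windows (horizontal axis), for M48, M28, M42 and M22, with the range of the other 53 animals in grey. M48 lies at -1.60 for domains of 3 windows and at 0.59 for domains of 7 windows.

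Domains of 6 windows were themselves mixed in M48. Of the 1904 such domains, 16.5% were at 0.5 times the median animal or less, and 903 lay above it. Over all lengths, 2322 domains (27.7%) were above the median animal in M48. Of these, 54.2% had 6 or 7 windows, against 18.6% of the other 6049 domains. The same 2322 domains had median log2 differences of -0.07 in M28, -0.13 in M42 and -0.01 in M22, while the other domains had -0.65, -0.26 and -0.31. M48 had the second lowest total count of all animals and M28 was also shallow, with 20151792 and 26487836 reads. M3 with 19909382 and M67 with 22211333 reads had median log2 differences of 0.00 to 0.06 for every length. M42 had 59007697 reads and M22 had 71916679. The part of depth in these differences was not tested.

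Over all animals, domains of 6 windows varied less than shorter ones. Beyond what counting error gives, the CV of a domain over the 57 animals had a median of 0.133. It was 0.152 for domains of 3 windows, 0.142 for 4, 0.129 for 5, 0.0868 for 6, 0.129 for 7 and 0.143 for 8 to 14. Without M28 and M48 the medians were 0.104, 0.0936, 0.0806, 0.0653, 0.0599 and 0.106 in the same order, and 0.0843 over all domains. Single domain windows had a median of 0.183, and windows of 0.5 to 1.5 times the median had 0.247. Without both animals these were 0.143 and 0.219. Windows with fewer reads have a larger counting error, which was taken off here under the assumption of Poisson counts.

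A few domains differed widely between animals, some of them with a gap between high and low animals. Leaving out M28 and M48, at least 5 of the other 55 animals were above double or below 0.5 times the median animal in 14 domains, on 6 chromosomes. These domains were chosen by that spread, and what follows is a description. The clearest case was a pair of domains on chromosome 1 that lay 213 kb apart. In the first, chr1:97688001-97692000 (4 windows), animals M7, M11, M15, M23, M24 and M35 had 0.976 to 1.28 RPM per window and the other 49 had 0.268 to 0.879. In the second, chr1:97905001-97911000 (6 windows), the same 6 animals had 0.341 to 0.543 RPM and the other 49 had 0.742 to 2.01. With the animals of the rule and with M28 and M48 included, the 11 highest animals of the first domain were the same as the 11 lowest of the second. In the second domain the 66 animals fell into 3 ranges with gaps between them. There were 11 animals at 0.341 to 0.543 RPM, 27 at 0.742 to 1.28 and 28 at 1.58 to 2.01. In the first domain the same sets had medians of 1.11, 0.645 and 0.404 RPM. The low range of the second domain held 5 of the 9 control lineage animals without disease, 3 of the 7 with a disease and 3 of the 50 atrazine lineage animals. The 9 without disease are the animals whose values chose the domains, and the first domain had a level of 2.38 in them and 1.50 in the other 57, so that nothing about the lineages is read from these counts.

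On chromosome 5, 4 domains within 25 kb (chr5:137961001-137986000, 14 windows) were low in nearly the same animals. M4, M20, M29, M40, M44, M45, M46, M47 and M49 were below 0.5 times the median animal in all 4, and M3 and M51 in some of them. In chr5:137967001-137970000 the 10 low animals had 0.264 to 0.460 RPM and the other 45 had 0.586 to 2.06. The gap was much smaller in chr5:137981001-137986000, where the highest of the 10 low animals had 0.426 and the lowest of the others 0.446, so that the split there is little more than the limit of 0.5 times the median. Of the 10 low animals of chr5:137967001-137970000, 1 was of the control lineage and 9 of the atrazine lineage. For chr5:137981001-137986000 these numbers were 2 and 8.

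On chromosome 16, 4 domains within 47 kb (chr16:64902001-64949000, 21 windows) were high in a shared set of animals. M24, M26, M27, M29, M39, M40 and M41 were above double the median animal in all 4. In chr16:64944001-64949000, 11 animals had 3.42 to 6.37 RPM and the other 44 had 0.993 to 2.56. The highest were M24 without disease (6.37) and M26 with multiple disease (6.00). Testis disease animals M29, M33 and M41 had 4.11, 3.42 and 4.14, while the fourth testis disease animal, M32, had 1.42. The 9 animals of the rule lay between 1.09 and 1.46, and control lineage animal M17 had 3.53. The levels of these 9 chose the domains, so nothing about lineage or disease is read from their range. M20, M39 and M40, which were also among the 11 high animals, had no disease. The remaining domains of this kind were chr6:140086001-140091000, chr12:20593001-20597000, chr12:20827001-20830000 and chr13:90145001-90150000, where 5 to 7 animals were below 0.5 times the median animal. All of these were of the atrazine lineage, as were 48 of the 55 animals considered. In chr12:20593001-20597000 the low animals reached 0.381 RPM and the others began at 0.393, with hardly a gap. 

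**Figure D4:**
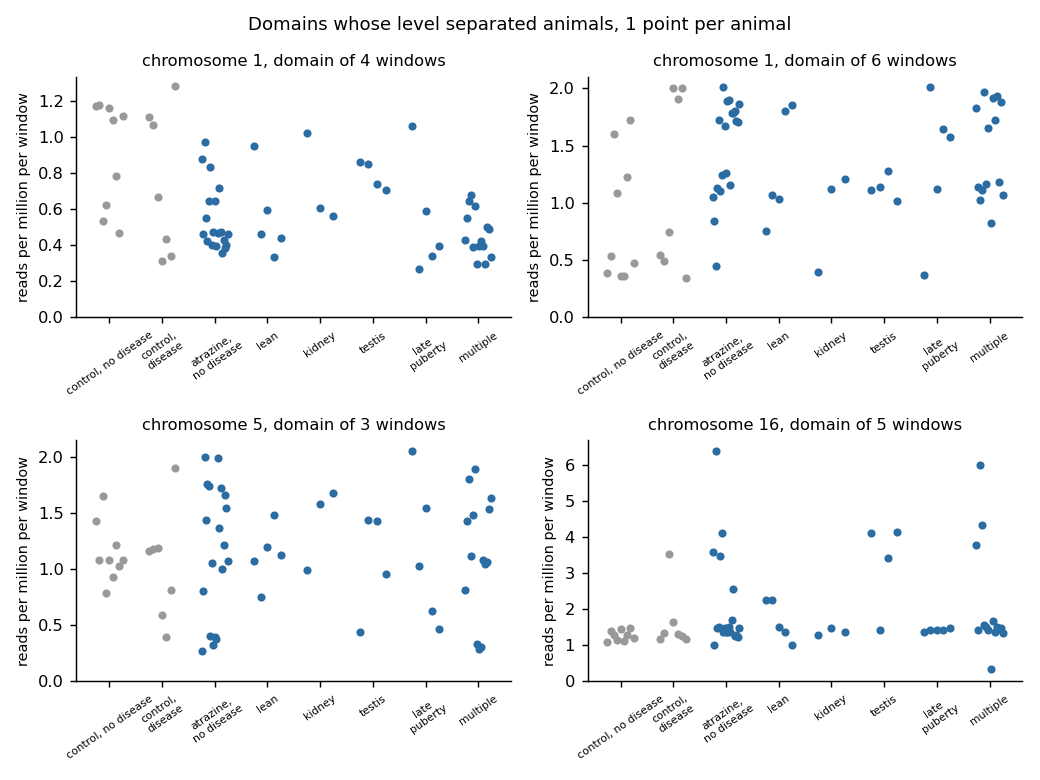
RPM per window (vertical axis) in 4 domains that separated animals, by group (horizontal axis), with 1 point per animal and control lineage animals in grey. The 11 animals that are highest in the chromosome 1 domain of 4 windows are the 11 lowest in the chromosome 1 domain of 6 windows, and on chromosome 16 the highest animals reach 6.37.

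To ask whether disease or ancestral exposure went with more or less histone retention over the domains as a whole, the share of an animal's reads that fell in domain windows was compared. The 9 animals of the rule had 4.36% ± 0.0700 (SD, n = 9), which is a description. Atrazine lineage animals without disease, the 17 that also stand in the disease tables (M59 and M68 do not), had 4.30% ± 0.165 (SD, n = 17). Lean animals had 3.99% ± 0.409 (SD, n = 5), a difference of -0.309 percentage points (exact permutation test, two-sided, p = 0.0183, adjusted p = 0.110 over 6 comparisons with Benjamini-Hochberg). By animal the values were 3.37% in M28, 3.77% in M42, 4.22% in M54, 4.28% in M66 and 4.30% in M56. M28 and M42 were below all 17 animals without disease (3.81% to 4.47%), and the other 3 lay among them. Without M28 the difference was -0.154 (p = 0.108), without M42 it was -0.254 (p = 0.0588, both exact permutation tests), and without both it was -0.03 (p = 0.761).

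In the other comparisons the means lay close to those of the reference. Kidney disease animals had 4.34% ± 0.0692 (SD, n = 3; exact permutation test, p = 0.675), testis disease animals 4.34% ± 0.0224 (SD, n = 4; p = 0.665) and late puberty animals 4.33% ± 0.0892 (SD, n = 5; p = 0.705). Multiple disease animals had 4.31% ± 0.232 (SD, n = 14; permutation p = 0.855), with M48 the lowest at 3.65%. The difference from the animals without disease was 0.0136 percentage points with M48 and 0.0644 without it (permutation p = 0.276). The 50 atrazine lineage animals had 4.28% ± 0.219 (SD, n = 50) and the 7 control lineage animals with a disease 4.33% ± 0.145 (SD, n = 7; exact permutation p = 0.593). The control lineage animals of this comparison all had a disease. With the 31 atrazine lineage animals that had a disease, M28 and M48 among them, the difference was -0.0616 (exact permutation p = 0.582), against -0.05 with all 50. Without M28 and M48 it was -0.0179 (48 animals against 7, exact permutation p = 0.786). The adjusted p of these 5 comparisons was 0.846 or 0.855. The 5 disease comparisons share their 17 reference animals.

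**Figure D5:**
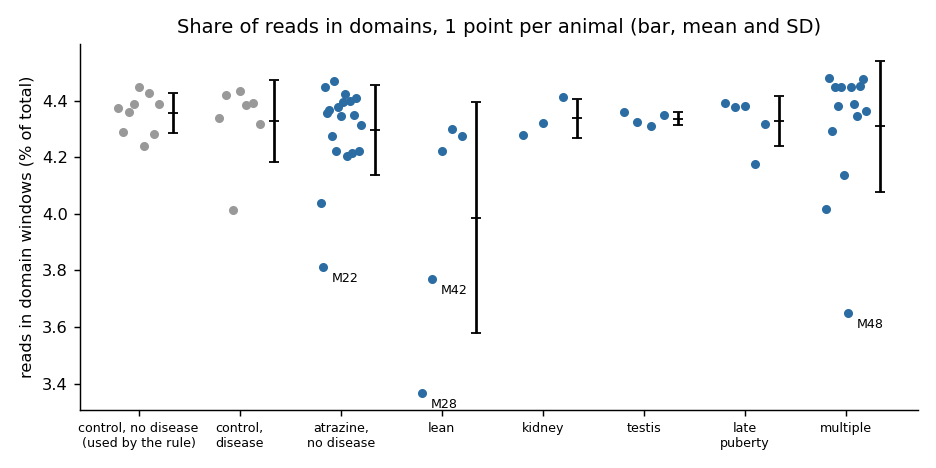
Reads in domain windows as a percentage of all reads of an animal (vertical axis, which does not start at 0) by group (horizontal axis), with 1 point per animal and the mean and SD as a bar. M28 (3.37%), M48 (3.65%), M42 (3.77%) and M22 (3.81%) are the lowest of the 66 animals.

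Single windows were then compared with edgeR's quasi-likelihood test over all windows of the table that had 10 or more reads per animal on average. A window was called at p below 0.0001, the study's threshold for a differential histone retention region. No domain window had an adjusted p below 0.05 in any comparison with edgeR, and no domain had one when its reads were summed. DESeq2's Wald test, adjusted over the domain windows and 60000 other windows only, gave 7 such domain windows of 40904 in the lean comparison, against 18 of all 100904 windows it tested. In the lean comparison 33 of the 40904 domain windows (0.0807%) were called, against 0.0402% of all windows tested, and the smallest adjusted p was 0.239 (edgeR). DESeq2 called 44 domain windows there (0.108%, against 0.0991% of the windows it tested), and with reads summed over each domain edgeR called 1 domain (0.0119%, against 0.0391% of all units tested). The edgeR calls lay in 33 different domains, where 14 windows were higher and 19 were lower. DESeq2 called 7 higher and 37 lower windows. The counts were 2 domain windows (0.00489%) against 0.00235% of all windows for kidney disease, 11 (0.0269%) against 0.00533% for testis disease and 3 (0.00733%) against 0.00355% for late puberty. For kidney disease DESeq2 called 0 domain windows and 0 of all 100904 windows it tested. It called 4 domain windows for testis disease (0.00978%, against 0.00595% of the windows it tested) and 1 for late puberty (0.00244% against 0.00396%). For multiple disease no domain window was called against 0.00137% of all windows, and for the lineages none against 0.00604%. An unadjusted p below 0.05 was found in 1672 (4.09%) and 1565 (3.83%) domain windows in these last comparisons, against 3.30% and 4.01% of all windows. For kidney disease it was found in 2.28% of domain windows against 2.77% of all windows. For testis disease these shares were 3.13% and 3.65%, and for late puberty 3.11% and 3.49%. In the lean comparison it was found in 15.1% against 11.4%, and without M28 and M42 in 3.38% against 4.0%. Without M48 it was found in 4.19% of domain windows against 3.88% of all windows for multiple disease, and without M28 and M48 in 5.22% against 4.74% for the lineages. DESeq2's Wald test called 0 domain windows for multiple disease, against 0.000991% of the 100904 windows it tested. For the lineages it called 4 (0.00978%, against 0.00496% of the 100904 windows it tested).

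In each of the 14 higher windows M28 was the highest lean animal, and in 12 of them it was the only lean animal above all 17 animals without disease. Of these 14 windows 10 lay in domains of 6 or 7 windows, as did 6 of the 19 lower windows and 14770 of all 40904 domain windows. In the 19 lower windows M28 was the lowest lean animal in 10 and M42 in 9. Without M28 the test called 7 domain windows (0.0171%, against 0.0153% of all windows), which was near the background. All 7 were lower, as were 334 of the 370 windows called in all. Without M42 it called 20 (0.0489% against 0.0137%) and without both 7 (0.0171% against 0.00493%). Without M54 it called 104 (0.254% against 0.0945%), without M56 53 (0.130% against 0.0559%) and without M66 115 (0.281% against 0.149%). The median log2 fold change of the domain windows was -0.12, and 28.7% of them were higher in lean animals, against a median of 0.01 and 50.8% for all windows tested. Without M28 and M42 the median was -0.01 and 48.2% were higher.

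The lean decrease with the smallest p was at chr16:606001-607000, in a domain of 18 windows, where the 5 lean animals had 0.553 ± 0.168 RPM (SD) and the 17 reference animals had 1.22 ± 0.378 (SD). The log2 fold change there was -1.12 (standard error 0.22, edgeR, adjusted p = 0.239). Of the 5 lean animals 3 were below all 17. The increase with the smallest p was at chr1:63591001-63592000, with 1.46 ± 0.507 against 0.782 ± 0.235 RPM (log2 fold change 0.88, standard error 0.18, adjusted p = 0.239), and only M28 with 2.34 RPM was above all 17. In 2 of the 19 lower windows the groups did not overlap. The share of such windows among all windows tested was not counted, so nothing is read from this number. Both windows were chosen after their values were seen, and their genes come from the study's histone lists, which were drawn from these same libraries. One lies in the domain of Adam5 (chr16:72053001-72054000), a gene of the disintegrin family, with 0.378 to 0.806 RPM against 0.924 to 1.55 (log2 fold change -0.83, standard error 0.18). The other lies in the domain of Fam168a (chr1:165844001-165845000), with 0.415 to 0.729 against 0.776 to 1.34 RPM (log2 fold change -0.80, standard error 0.18). Windows in the domains of Tek and Cep112 were also among the 19. The adjusted p was 0.239 for all of these.

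For testis disease, 10 of the 11 domain windows called by edgeR were higher in the diseased animals (DESeq2 called 2 higher and 2 lower), and 9 of these 10 lay in a single group of 17 domains on chromosome 1 (chr1:76443001-77296000, 73 domain windows). The study lists Sult2a6, a sulfotransferase, at 2 of them, at one from a methylation list alone. The window with the smallest p among the increases was there (chr1:76447001-76448000), with 1.24 ± 0.226 RPM (SD, n = 4) in testis disease and 0.651 ± 0.237 (SD, n = 17) without disease. All 4 animals were above all 17 (log2 fold change 0.90, standard error 0.19, edgeR, adjusted p = 1.00). Over all 73 windows the 4 testis disease animals had 1.09 to 1.20 RPM per window. The 17 animals without disease had 0.381 to 1.20 with a median of 0.856, and the 3 kidney disease animals 1.12 to 1.16. Control lineage animals spanned 0.459 to 1.18 RPM and the 14 multiple disease animals 0.294 to 1.23. Of the latter, M48, M21, M26, M52 and M37 are labelled with testis disease among others. They had 0.294, 0.526, 1.08, 1.16 and 1.23 RPM. The group of domains was singled out after its values were seen. When reads were summed over each domain, 8 domains were called for testis disease (0.0956% of the domains, against 0.0054% of all units tested), and the 7 higher ones all lay in this group. The group spans 853 kb, and its domains are not independent of each other. The smallest adjusted p of a summed domain was 0.782 (edgeR). The eighth, chr17:47694001-47704000, was lower. With one of the 4 animals left out, 5 to 7 domain windows were called (0.0122% to 0.0171%, against 0.00371% to 0.00561% of all windows). Without M29 only 2 of them were higher and 3 were lower, and without M32, M33 or M41 5 were higher each time.

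The decrease with the smallest p for testis disease was at chr3:16757001-16758000 in a domain of 10 windows, with 0.363 ± 0.0398 RPM (SD, n = 4) against 0.741 ± 0.215 (SD, n = 17), and the groups overlapped (log2 fold change -1.06, standard error 0.22, adjusted p = 1.00). For kidney disease the increase with the smallest p was at chr1:77287001-77288000, again in the group of domains on chromosome 1, with 1.37 ± 0.153 RPM (SD, n = 3) against 0.715 ± 0.301 (SD, n = 17). The groups overlapped there, with 1.28 to 1.55 RPM against 0.338 to 1.62. The log2 fold change of this window was 0.92 (standard error 0.21, edgeR, adjusted p = 1.0). The other kidney disease call, chr2:81745001-81746000, was higher in all 3 animals than in all 17. No decrease was called, and the smallest p of a decrease was 0.000255 at chr1:197983001-197984000 (1.03 ± 0.0734 against 1.75 ± 0.420 RPM). Without M23 or without M64 no domain window was called for kidney disease, against 0.00199% and 0.000927% of all windows.

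For late puberty the window with the smallest p of all comparisons was at chr3:21440001-21441000, in a domain of 10 windows. Late puberty animals had 1.29 ± 0.352 RPM (SD, n = 5) and animals without disease 0.654 ± 0.281 (SD, n = 17), and 3 of the 5 were above all 17 (log2 fold change 0.94, standard error 0.18, edgeR, adjusted p = 0.365). The called decrease was at chr13:32137001-32138000, the third window of a domain of 6, with 0.591 ± 0.242 against 1.01 ± 0.304 RPM (log2 fold change -0.78, standard error 0.19). Summed over domains, 3 domains were called (0.0358%, against 0.00356% of all units tested). The decrease in that domain was one of them, at -0.56 (standard error 0.13), with 0.422 to 0.891 RPM per window against 0.381 to 1.18. Without M38 the test called 7 domain windows (0.0171% against 0.00323%) and without M51 it called 5 (0.0122% against 0.00315%). Of these, 5 were higher and 2 lower without M38, and 1 was higher and 4 lower without M51. With all 5 animals 2 were higher and 1 was lower.

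For multiple disease and for the lineages the smallest p did not reach the threshold. In multiple disease the window was chr6:115760001-115761000 for increases (0.905 ± 0.206 against 0.714 ± 0.118 RPM, log2 fold change 0.39, standard error 0.11) and chr9:90456001-90457000 for decreases (0.935 ± 0.241 against 1.24 ± 0.184 RPM, -0.35, standard error 0.11). Between the lineages it was chr16:651001-652000 for increases in the atrazine lineage (1.28 ± 0.307 against 0.867 ± 0.161 RPM, 0.56, standard error 0.14). For decreases it was a window in the domain listed with Suclg2, a subunit of succinyl-CoA ligase (chr4:127689001-127690000, 0.868 ± 0.186 against 1.20 ± 0.272 RPM, -0.47, standard error 0.12). The adjusted p of all 4 windows was 1.00 (edgeR). Without M28 and M48 the test of the lineages called 6 domain windows (0.0147%, against 0.0103% of all windows).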

How the data were processed

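Sperm of F3 generation rats was measured by histone H3 ChIP-Seq with reads of about 50 bp. The authors trimmed the reads with Trimmomatic, mapped them with Bowtie2 to Rnor 6.0 and counted them in windows of 1000 bp with MEDIPS, and the deposited values used here are these raw read counts. Of 67 animals listed, 66 had counts. The authors' own fold changes and p-values were not used, nor were 298 other columns of counts or scaled counts per animal.

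Groups followed the titles. Each library was taken as 1 animal, as labelled, although the methods speak of sperm pools. Counts were divided by the table total (RPM) for descriptions. Comparisons used edgeR 4.0.16 (R 4.3.3, TMM, quasi-likelihood test, windows averaging 10 or more reads, trended dispersion from 200000 windows), with calls at p below 0.0001 and Benjamini-Hochberg adjustment over all windows tested. DESeq2 1.42.0 on the domain windows and 60000 others was an alternative. Shares were compared with permutation tests written with NumPy 2.4.6. Scripts were tested on simulated data. Totals of 19909382 to 239635003 reads set the precision, and intervals from counts cover counting error only.

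Named domains were the 5 longest (with a domain tied for the fifth place), the 5 of highest level and the 5 of largest CV in the 57 animals outside the rule, and per comparison the window of smallest p in each direction. Others named were chosen after their values were seen. The members and lists were chosen with earlier results of these data known. Alternatives changed the limits, the run length, the scaling, the filter, the reference animals and the test, and left out single animals. A genome of this build was not used here, so no sequence, base content or annotation of the domains was analysed here.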

Additional observations from a re-analysis of the deposited data

Results flagged for a closer look

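Control lineage animal M17 had the lowest share of reads in the domains among the 7 control lineage animals with a disease, at 4.012%, against 4.32% or more in the other 6. Its gap to the nearest animal was 0.729 of the range of the group, above the critical value of 0.568 for 7 samples. On the share of domain windows at the lower limit M17 was also the lowest, but its gap of 0.486 of the range did not pass. The critical value is passed in about 1 of 20 groups by chance, and the 2 ends of 5 groups were looked at on 2 measures. M17 is labelled with multiple disease (kidney, lean). Its median log2 difference from the median animal was -0.12, -0.16 and -0.15 for domains of 3, 4 and 5 windows. For 6 and 7 windows it was -0.07 and -0.01. The cause of the low share in M17 was not tested.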

How the results depend on the processing

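The number of domain windows was 20433 with a lower limit of 2.5 and 69808 with 1.5, and the number of domains was 4613 and 12793. Runs of at least 5 windows gave 4491 domains. Leaving out each animal of the rule gave 40576 to 41143 windows and 8312 to 8447 domains. The share of domain windows within the limits was 95.1% by the median over the 57 animals, 94.3% in the 7 control lineage animals, 94.6% without M28 and M48 and 93.2% with TMM scaling. The median variation between animals was 0.0843 without M28 and M48.

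The lean difference in the share of reads was -0.387 to -0.154 with single lean animals left out and -0.0293 without M28 and M42 (chosen after seeing the data). Without the animals tagged DMSO it turned to -0.0089 for kidney disease (1 animal against 13) and to -0.0181 for multiple disease. Without M48 it was 0.0644 for multiple disease, and without M28 and M48 it was -0.0179 for the lineages. Leaving out single animals gave 0.0043 to 0.072 for kidney disease, 0.0324 to 0.049 for testis disease and 0.0175 to 0.0709 for late puberty.

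Shares in parentheses are those of domain windows against all windows. Called domain windows numbered 52 for lean (0.127% against 0.0708%) and 7 for testis disease (0.0171% against 0.00474%) with all 19 reference animals, 7 (lean) without M28 and M42 (0.0171% against 0.00493%), 6 for late puberty (0.0147% against 0.00531%) and 1 for the lineages (0.00244% against 0.00628%) without the animals tagged DMSO, and 1 for multiple disease (0.00244% against 0.00461%) without M48. For the lineages they numbered 29 with all 16 control animals, 9 of which chose the domains (0.0709% against 0.0133%), 6 without M28 and M48 (0.0147% against 0.0103%), and 1 with a mean of at least 20 reads (0.00244% against 0.00507%). DESeq2 called 0 for kidney disease (0% against 0%) and 4 for testis disease (0.00978% against 0.00595%). It called 1 for late puberty (0.00244% against 0.00396%) and 4 for the lineages (0.00978% against 0.00496%). With single animals left out the ranges were 7 to 115 for lean (all windows 0.0137% to 0.149%), 0 to 2 for kidney disease (0.000927% to 0.00507%), 5 to 7 for testis disease (0.00371% to 0.00561%) and 2 to 7 for late puberty (0.00274% to 0.00458%). Reads summed over domains gave 1 call for lean (0.0119% against 0.0391% of all units) and 0 for kidney disease (against 0.00218%). The cause of these changes was not tested. No paired analysis was possible because no animal stands in 2 of the groups compared.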
